A study of Macaca mulatta with 27 samples.

Results

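Keratins and claudins, the gene families that build the epithelial cytoskeleton and the tight junction, were examined in rhesus monkey embryonic stem cells before and after culture under 7 protocols meant to bring them to the naive state of pluripotency. The members were all gene symbols of the count tables made of KRT or CLDN, a number and, for keratins, at most 1 further letter. This gave 65 of 17967 symbols, 41 keratins and 24 claudins. KRT18 and KRT19, the usual type I partners of KRT8 and KRT7 in simple epithelia, were not analysed here.

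Keratins form intermediate filaments as obligate pairs of a type I and a type II chain. KRT8 and KRT7 are type II chains of simple, single-layered epithelia, KRT5 is the type II chain of basal cells in layered epithelia, KRT17 is a type I chain of skin appendages and of epithelium under stress, and KRT10 is a type I chain of differentiated epidermis. Claudins are membrane proteins with a pair of extracellular loops that form the strands of tight junctions. Some of them, such as CLDN1, seal the space between cells, whereas others, such as CLDN15 and CLDN2, form pores for small cations. CLDN6 is known as a claudin of embryonic epithelia and of primed pluripotent stem cells, which grow as flat epithelial colonies.

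All cells came from LyonES, a rhesus embryonic stem cell line. It carried tau-GFP driven by the ubiquitous CAG promoter and, as the single clone LyonES-tGFP-(S3), a lentiviral STAT3 fused to a tamoxifen-dependent oestrogen receptor domain, so primed and reprogrammed cells shared both transgenes and every group rests on 1 clone of 1 line. Bulk mRNA sequencing covered 27 libraries, 6 of primed cells and 3 for each of E-NHSM, TL-CDK8i, TL2i, 4i/L/b, NHSM-v, LCDM (EPS) and t2iLGöY. TL2i cells received tamoxifen, LIF and inhibitors of MEK and of GSK3β, and TL-CDK8i cells received tamoxifen, LIF and, in place of both inhibitors, a chemical inhibitor of CDK8 and CDK19. Tamoxifen was absent from the other 5 protocols, whose full recipes are not given in the sources used here. Primed cells were passaged as clumps and reprogrammed cells as single cells, a difference that cannot be told apart from the protocols. Nothing in the labels says that the libraries of 1 group came from separate cultures, so each p-value measures the spread between these libraries, which may be technical.

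The libraries held between 7111886 and 20760914 counted reads, with a median of 12201171. Levels are given as CPM (counts per 1000000 counted reads) after TMM scaling, with no correction for transcript length, so they are compared between groups and not between genes. The mark of a pluripotent cell, POU5F1 (OCT4), stood between 1127 and 1277 CPM in the 6 primed libraries, between 1345 and 1399 in E-NHSM and between 411 and 596 in TL-CDK8i. In the other 5 protocols it ranged from 0.0720 to 7.67 CPM, so the libraries of 5 groups that the labels call naive cells were nearly without this defining marker. NANOG was in the same position, at 134 CPM on average in primed cells, 169 in E-NHSM, 73.3 in TL-CDK8i and 0.320 or less in the other 5. What this loss contributed to the keratin and claudin values was not tested, and in bulk libraries fewer cells of a type and less RNA per cell cannot be told apart.

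Of the 65 members, 26 were detected, here meaning more than 3 counts in every library of at least 1 group. They were 9 of 41 keratins and 17 of 24 claudins. The other 39 members, 32 keratins and 7 claudins, included 11 at 0 in all 27 libraries, and a count of 0 limits a gene to at most 3 counts per library, for counting error only. The highest count reached by any undetected member was 37, for KRT74 in 1 TL-CDK8i library. Undetected keratins included KRT14, the partner of KRT5, and KRT1, the partner of KRT10. The number of members detected was 15 in primed cells, 17 in E-NHSM, 20 in TL-CDK8i, 25 in TL2i, 16 in 4i/L/b, 12 in NHSM-v, 10 in LCDM (EPS) and 8 in t2iLGöY. These numbers are not strictly comparable between groups. A member had to pass in all 6 primed libraries but in only 3 of a protocol. Depth differed too, with 3 counts standing for 0.303 CPM on average in primed cells and 0.178 CPM in TL2i. Only CLDN1, CLDN6, CLDN12, CLDN15, KRT8, KRT10 and KRT12 were detected in all 8 groups, and 13 members, 6 keratins and 7 claudins, reached 10 CPM in the mean of some group.

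**Figure D1:**
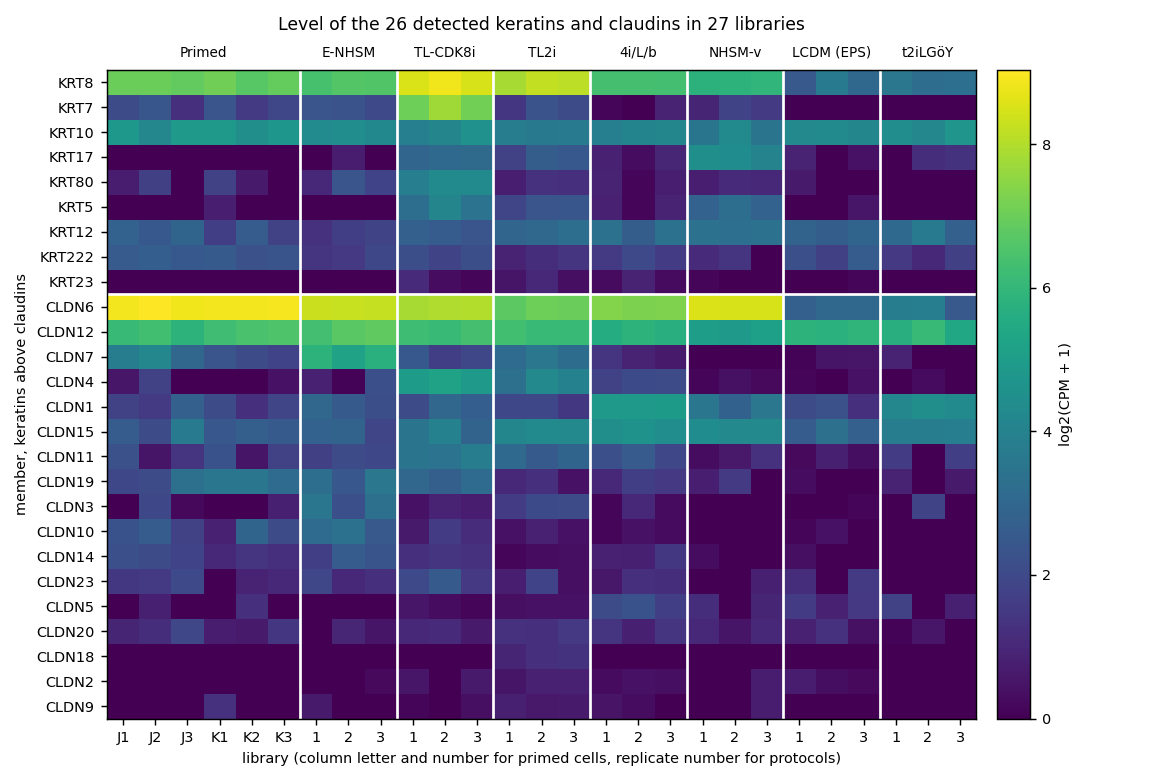
Level of the 26 detected members (rows, keratins above the white line and claudins below it) in the 27 libraries (columns, grouped by protocol), as log2 of CPM plus 1. KRT8 was brightest in TL-CDK8i and TL2i, and CLDN6 was bright in primed cells and dark in LCDM (EPS) and t2iLGöY.

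Each protocol was set against the 6 primed libraries with edgeR's quasi-likelihood test over all genes, with Benjamini-Hochberg adjustment and a threshold of 0.05. The 7 comparisons share the primed libraries. In E-NHSM, 2 members were higher and 2 lower among 18 tested, where 26.2% of all genes tested passed. In TL-CDK8i, 7 were higher and 1 lower of 20, against 46.1% of all genes (22.3% higher and 23.8% lower). In TL2i, 6 were higher and 6 lower of 22, against 50.7%. In 4i/L/b, 2 were higher and 8 lower of 18, against 55.6% (26.6% higher and 29% lower). In NHSM-v, 4 were higher and 9 lower of 19, against 58.6% (28% higher and 30.6% lower). In LCDM (EPS), 0 were higher and 8 lower of 17, against 57.1% (28.2% higher and 28.9% lower). In t2iLGöY, 2 were higher and 9 lower of 16, against 54.3% (27.1% higher and 27.2% lower). The share of tested members called ran from 22.2% in E-NHSM to 68.8% in t2iLGöY, on both sides of the share over all genes. The median log2 fold change of the members tested was 0.45 in TL-CDK8i, beside 0.02 over all genes, and it was -3.21 in t2iLGöY, beside 0.02. A member enters a test through the group where it is high, so these counts and medians describe the members tested and not all 65.

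KRT8, the type II keratin of simple epithelia, moved in opposite directions between protocols. The 6 primed libraries held between 101 and 133 CPM of KRT8 with a median of 122. TL-CDK8i held 367, 457 and 359 CPM and TL2i held 229, 293 and 281 CPM. All 6 of these lay above every primed library. In E-NHSM the values were 83.4, 97.7 and 94.6 CPM, in 4i/L/b 81.6, 82.5 and 79.0, and in NHSM-v 54.9, 56.3 and 60.2. LCDM (EPS) held 4.78, 12.4 and 7.33 CPM and t2iLGöY held 10.9, 8.30 and 8.93. Every library of these 5 protocols lay below the lowest primed library.

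KRT8 rose by a log2 fold change of 1.68 (SE 0.11, edgeR quasi-likelihood adjusted p = 2.44e-08) in TL-CDK8i, a 3.28-fold higher level. In TL2i the log2 fold change was 1.16 (SE 0.11, edgeR adjusted p = 8.38e-07). KRT8 fell in LCDM (EPS) by 3.83 on the log2 scale (SE 0.25, edgeR adjusted p = 1.35e-08) and in t2iLGöY by 3.65 (SE 0.16, edgeR adjusted p = 8.62e-11), 14.7 and 12.8 times lower than in primed cells. The smaller changes were -1.12 in NHSM-v (SE 0.12) and -0.62 in 4i/L/b (SE 0.11). In E-NHSM the log2 fold change was -0.39 (SE 0.11, edgeR adjusted p = 0.0168), and this call was lost without E-NHSM library 1 (adjusted p = 0.116) or library 3 (adjusted p = 0.0543).

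KRT7, a type II keratin of ducts, glands and trophoblast, was high in a single protocol. Primed libraries held between 1.41 and 4.40 CPM with a median of 3.00, whereas TL-CDK8i held 129, 216 and 136 CPM. TL2i, the protocol that shares tamoxifen and LIF with it, held 1.71, 3.98 and 3.32 CPM. E-NHSM held 4.18, 3.99 and 2.96 CPM and NHSM-v 0.919, 2.63 and 1.88. These 3 groups overlapped the primed libraries and none of them passed the test. In 4i/L/b the values were 0.0965, 0 and 0.870 CPM, and all 6 libraries of LCDM (EPS) and t2iLGöY were at 0.

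The log2 fold change of KRT7 in TL-CDK8i was 5.70 (SE 0.26, edgeR adjusted p = 1.35e-09), 53.6-fold above primed cells. KRT7 was at least 19.3-fold lower in LCDM (EPS) and at least 14.5-fold lower in t2iLGöY, reckoned at 3 counts per library (edgeR adjusted p = 0.000227 and 0.000525). In 4i/L/b it was lower by 3.18 on the log2 scale (SE 1.04, edgeR adjusted p = 0.0190), a call lost without 4i/L/b library 1 (adjusted p = 0.0932) or 2 (adjusted p = 0.0685). Of 8 trophoblast and amnion genes tested in TL-CDK8i, 3 were higher and 2 lower than in primed cells. Over all genes, 22.3% were higher and 23.8% lower, so the 2 lower genes lie near that share. Their median log2 fold change was 1.51, beside 0.02 over all genes. The list summed to between 126 and 166 CPM in TL-CDK8i and between 176 and 225 CPM in primed libraries. Most of the primed sum came from the 2 genes called lower, VTCN1 (117 CPM in primed cells, 38.0 in TL-CDK8i) and TEAD4 (56.5 and 40.1). GABRP, an amnion marker of that list, had a mean of 6.71 CPM in TL-CDK8i and 71.5 CPM in TL2i. It is 1 of 13 genes and was named after its values were seen, so it does not stand for the list. The part of such cells in the KRT7 level was not tested.

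**Figure D2:**
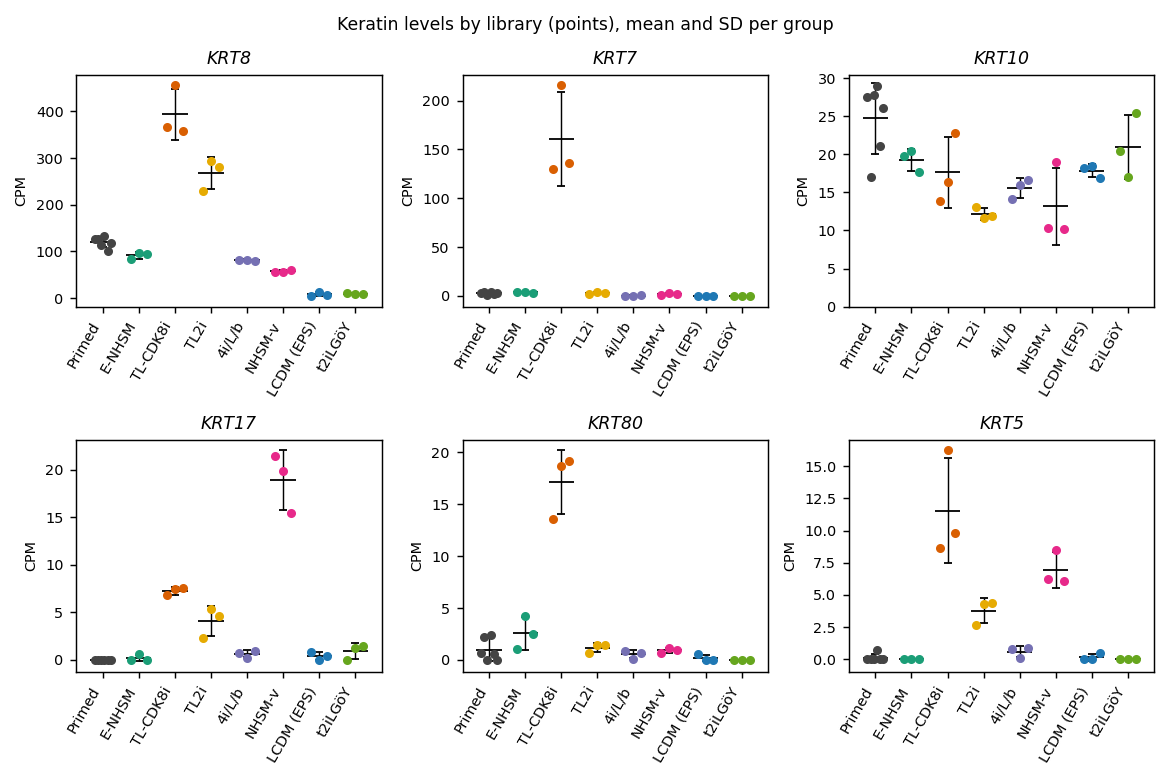
CPM (linear axis) of the 6 keratins that reached 10 CPM in the mean of some group, by group. Points are libraries, horizontal lines are group means and bars are the SD (n = 6 for primed cells and 3 for each protocol). KRT7 and KRT80 stood up in TL-CDK8i, KRT17 stood highest in NHSM-v, and the KRT10 values of most groups overlapped.

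KRT5, KRT17 and KRT80 were nearly absent from primed cells and rose in some protocols. KRT17 was at 0 in all 6 primed libraries. It reached 21.5, 19.9 and 15.4 CPM in NHSM-v, 6.79, 7.46 and 7.61 CPM in TL-CDK8i and 2.34, 5.38 and 4.66 CPM in TL2i. Values elsewhere were 0, 0.610 and 0 in E-NHSM, 0.772, 0.246 and 0.967 in 4i/L/b, 0.834, 0 and 0.372 in LCDM (EPS) and 0, 1.27 and 1.51 in t2iLGöY. KRT17 was thus at least 62.4-fold higher in NHSM-v (edgeR adjusted p = 7.91e-07), at least 24.0-fold higher in TL-CDK8i (adjusted p = 9.22e-05) and at least 13.6-fold higher in TL2i (adjusted p = 0.000431), each bound taken at 3 counts per primed library.

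KRT5 was at 0 in 5 of 6 primed libraries and at 0.692 CPM, 8 counts, in K1. It stood at 8.63, 16.2 and 9.80 CPM in TL-CDK8i, 6.201, 8.52 and 6.10 CPM in NHSM-v and 2.69, 4.27 and 4.37 CPM in TL2i. These 9 libraries lay above all primed libraries. The 3 E-NHSM and the 3 t2iLGöY libraries were at 0, LCDM (EPS) held 0, 0 and 0.478 CPM, and 4i/L/b held 0.772, 0.123 and 0.870. The log2 fold changes were 6.37 (SE 1.00), 5.64 (SE 1.18) and 4.85 (SE 1.25) in TL-CDK8i, NHSM-v and TL2i, with edgeR adjusted p of 0.000123, 0.000790 and 0.00523. KRT14, which pairs with KRT5 in basal epidermis, had at most 8 counts in any library. TP63, the regulator of basal epithelial cells, had group means of 0.602 CPM or less.

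KRT80, a type II keratin present in many epithelia, was likewise high in TL-CDK8i. Primed libraries ranged from 0 to 2.42 CPM with a median of 0.616, and TL-CDK8i held 13.6, 18.6 and 19.1 CPM. The 3 TL2i libraries held 0.684, 1.46 and 1.41 CPM, the 3 E-NHSM libraries 1.03, 4.22 and 2.53, and NHSM-v 0.689, 1.16 and 0.987. It stood at 0.869, 0.123 and 0.677 CPM in 4i/L/b and at 0.556, 0 and 0 in LCDM (EPS), and it was at 0 in t2iLGöY. Only TL-CDK8i passed the test against primed cells, with a log2 fold change of 4.05 (SE 0.79, edgeR adjusted p = 0.000745). In the RefSeq annotation of T2T-MMU8v2.0, KRT80 overlaps another protein-coding locus. The build and strand setting of the counts are not given in the sources used here, so reads in the overlap could have gone to either gene or to neither.

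KRT10, the type I keratin of differentiated epidermis, ranged from 17.1 to 29.0 CPM in primed cells with a median of 26.8. E-NHSM held 19.7, 20.5 and 17.7 CPM, TL-CDK8i 13.8, 16.3 and 22.8, LCDM (EPS) 18.2, 18.5 and 16.8 and t2iLGöY 20.4, 17.0 and 25.4, and none of these 4 passed the test. It was lower in TL2i, at 13.0, 11.6 and 11.9 CPM (log2 fold change -1.02, SE 0.21, edgeR adjusted p = 0.00125). It was also lower in NHSM-v, at 10.3, 19.0 and 10.1 CPM (log2 fold change -0.96, SE 0.27, edgeR adjusted p = 0.00657), where 1 library lay within the primed range. In 4i/L/b, at 14.1, 16.0 and 16.6 CPM, the log2 fold change was -0.72 (SE 0.21, edgeR adjusted p = 0.0102), and the call was lost without 4i/L/b library 1 (adjusted p = 0.0639). KRT12, known from corneal epithelium, had group means between 2.09 and 9.32 CPM with no call against primed cells. KRT222, a keratin-like gene, was at 4.65 CPM in primed cells and passed as lower in TL2i and NHSM-v. Its log2 fold change in TL2i was -1.90, and -1.66 without TL2i library 1, where it no longer passed (adjusted p = 0.0553). In NHSM-v it was -2.40, and between -2.59 and -2.31 without NHSM-v library 1 or primed J1 or J2, where the adjusted p was 0.0656, 0.0531 and 0.0563. KRT23 stayed at or under 0.572 CPM in every group mean.

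Among the keratins analysed here, the summed level of type II members moved more between groups than that of type I members. The type I sum lacks KRT18 and KRT19, the usual partners of KRT8 and KRT7, so it cannot show how all type I keratins moved. The 19 type II members summed to 125 ± 13.4 CPM in primed cells (SD, n = 6), 586 ± 107 in TL-CDK8i, 276 ± 36.5 in TL2i, 9.01 ± 3.83 in LCDM (EPS) and 9.37 ± 1.33 in t2iLGöY (SD, n = 3 each). The 22 type I members summed to 34.2 ± 4.95 CPM in primed cells, and group means elsewhere ran from 24.4 in E-NHSM to 42.8 in NHSM-v. KRT8 took 75.8% of all keratin reads in primed cells but 21.2% in LCDM (EPS) and 22.2% in t2iLGöY, where KRT10 took 46.3% and 49.7%. KRT7 took 25.9% of keratin reads in TL-CDK8i and 1.89% in primed cells. These are shares of reads over the members counted here, without KRT18 and KRT19 and without correction for length.

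**Figure D3:**
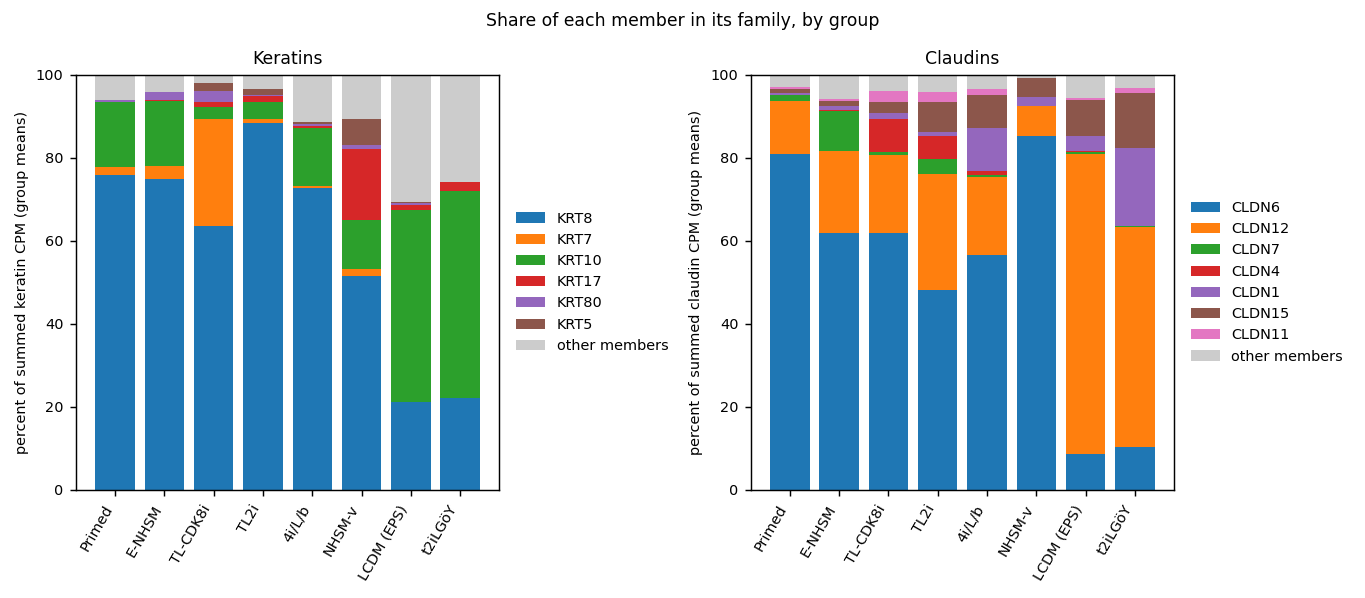
Share of each member in the summed CPM of its family, from group means, in primed cells and the 7 protocols (left, keratins; right, claudins; stacked bars add to 100%). KRT8 and CLDN6 filled most of their bars in primed cells, while KRT10 and CLDN12 held the largest share of reads in LCDM (EPS) and t2iLGöY.

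Among the claudins, CLDN6 was lower in all 7 protocols, to very different depths. Primed libraries held between 456 and 524 CPM with a median of 472. NHSM-v held 372, 362 and 357 CPM, E-NHSM 317, 311 and 301, and TL-CDK8i 231, 249 and 254. The values were 161, 153 and 157 CPM in 4i/L/b and 108, 131 and 125 in TL2i. They were 5.78, 7.16 and 7.28 CPM in LCDM (EPS) and 13.2, 13.5 and 4.76 in t2iLGöY. None of the 21 protocol libraries reached the lowest primed library.

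The log2 fold change of CLDN6 was -0.44 (SE 0.07, edgeR adjusted p = 6.07e-05) in NHSM-v and -0.63 (SE 0.07) in E-NHSM, and in TL-CDK8i the level was 1.96 times lower (edgeR adjusted p = 1.9e-07). It was -1.66 (SE 0.07) in 4i/L/b and -1.98 (SE 0.09) in TL2i. In LCDM (EPS) CLDN6 fell by 6.11 on the log2 scale (SE 0.11, edgeR adjusted p = 8.11e-14), which is 71.1 times lower, and in t2iLGöY by 5.47 (SE 0.26, edgeR adjusted p = 2.11e-10), which is 45.7 times lower. NHSM-v, with POU5F1 under 0.449 CPM in each library, thus kept CLDN6 nearest to the primed level, 1.32 times lower. CLDN9, the neighbouring gene of CLDN6 in RefSeq, had group means of at most 0.608 CPM.

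**Figure D4:**
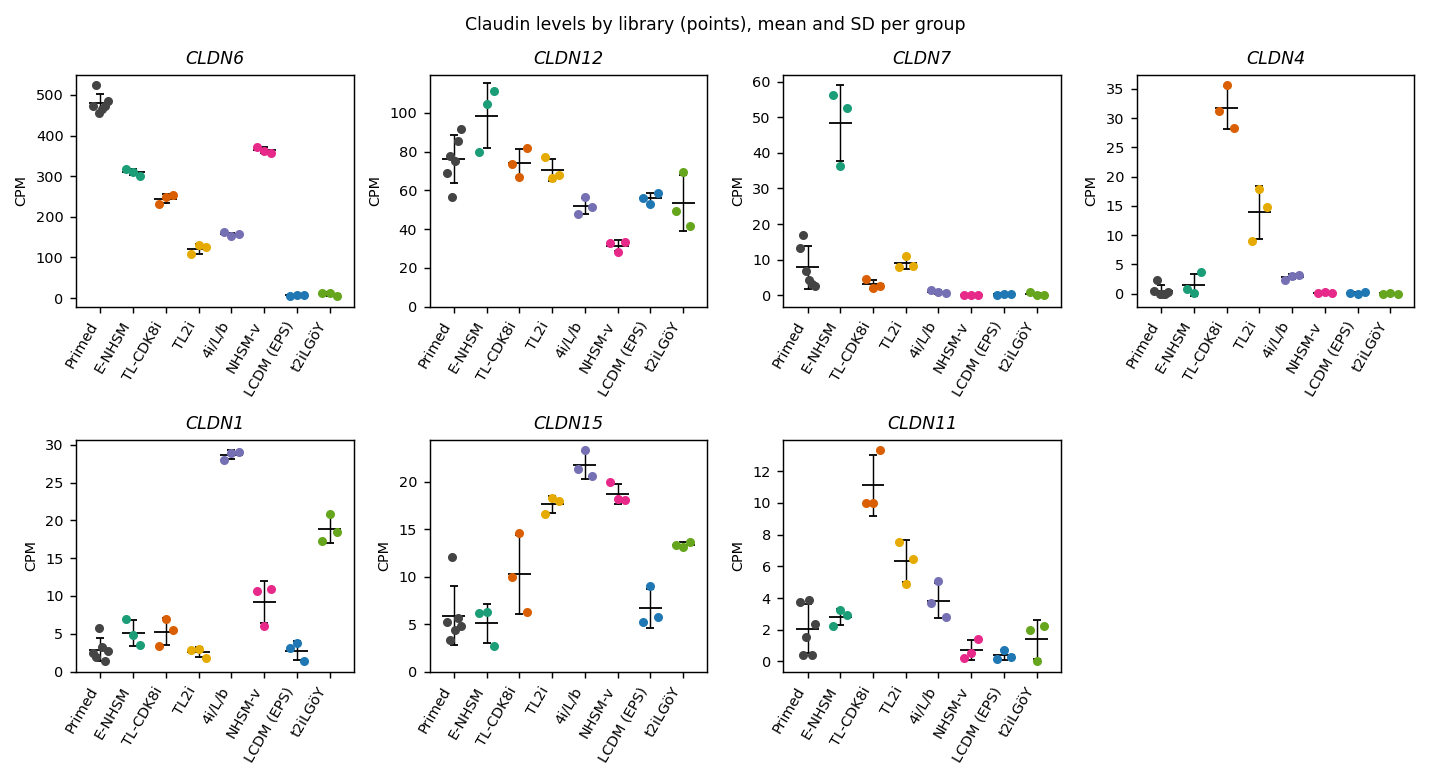
CPM (linear axis) of the 7 claudins that reached 10 CPM in the mean of some group, by group. Points are libraries, horizontal lines are group means and bars are the SD (n = 6 for primed cells and 3 for each protocol). CLDN6 descended from primed cells to near 0 in LCDM (EPS) and t2iLGöY, while CLDN7, CLDN4 and CLDN1 each stood up in different protocols.

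CLDN7 and CLDN3, epithelial claudins found together in gut and glands, were high in E-NHSM. For CLDN7 the E-NHSM libraries held 56.3, 36.3 and 52.5 CPM, all above the primed range of 2.51 to 17.1 CPM with its median of 5.57. TL-CDK8i held 4.61, 2.19 and 2.76 CPM and TL2i 7.91, 11.1 and 8.18, without passing the test. The values were 1.64, 0.861 and 0.580 CPM in 4i/L/b, 0 in the 3 NHSM-v libraries, 0.0556, 0.415 and 0.478 in LCDM (EPS), and 0.815, 0 and 0 in t2iLGöY. These 4 protocols lay below all primed libraries.

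The log2 fold change of CLDN7 was 2.63 in E-NHSM (SE 0.43, edgeR adjusted p = 0.000163), 6.13-fold above primed cells. It was -2.97 in 4i/L/b (SE 0.75, edgeR adjusted p = 0.00428), -4.55 in LCDM (EPS) (SE 0.90, edgeR adjusted p = 0.000604) and -4.77 in t2iLGöY (SE 1.18, edgeR adjusted p = 0.00319). In NHSM-v the level was at least 25.5-fold lower, reckoned at 3 counts per library (edgeR adjusted p = 7.07e-05). CLDN7 was also the only member that passed the test between the primed libraries whose columns bear the letter J (13.3, 17.1 and 6.90 CPM) and those with the letter K (4.24, 3.32 and 2.51 CPM), 3.70 times lower in K (edgeR adjusted p = 0.0337). In that comparison 1 of 16 members tested passed, beside 3.73% of all genes (2.03% higher and 1.7% lower in K), and no label says what the letters stand for. The call of CLDN7 was lost, leaving 0 members, without any one of J1, J2, K1, K2 or K3. RefSeq places CLDN7 over SLC2A4, whose group means rose from 0.340 CPM in primed cells to 5.21 in TL-CDK8i and 5.01 in TL2i, and its part in the CLDN7 counts was not tested.

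CLDN3 was at 10.6, 3.61 and 8.99 CPM in E-NHSM, above the primed range of 0 to 2.90 CPM (log2 fold change 3.62, SE 1.10, edgeR adjusted p = 0.0208). This call was weak, since it was lost without E-NHSM library 1 (adjusted p = 0.117) or 3 (adjusted p = 0.0878), and by DESeq2 (adjusted p = 0.130). CLDN4, the neighbour of CLDN3 in the genome and another claudin of tight epithelia, followed a different course. Primed libraries held between 0 and 2.36 CPM of CLDN4 with a median of 0.180, TL-CDK8i held 31.2, 35.6 and 28.4 CPM and TL2i 9.03, 17.9 and 14.8 CPM. The values in E-NHSM were 0.798, 0.0555 and 3.66 CPM and in 4i/L/b 2.41, 3.08 and 3.29. Every library of NHSM-v, LCDM (EPS) and t2iLGöY was at 0.372 CPM or less. CLDN4 rose in TL-CDK8i (log2 fold change 5.90, SE 0.78, edgeR adjusted p = 2.63e-05) and in TL2i (4.73, SE 0.97, edgeR adjusted p = 0.00109), the same protocols as KRT8.

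CLDN1, the sealing claudin of epidermis, rose in 3 of the 5 protocols in which both CLDN6 and KRT8 were lower, and had no call in E-NHSM and LCDM (EPS). Primed libraries held between 1.34 and 5.77 CPM with a median of 2.57. The levels were 28.0, 28.9 and 29.1 CPM in 4i/L/b, 17.2, 20.9 and 18.4 in t2iLGöY and 10.7, 5.99 and 10.9 in NHSM-v, with no overlap with primed cells. E-NHSM held 6.90, 4.83 and 3.50 CPM, TL-CDK8i 3.34, 6.91 and 5.52, TL2i 2.88, 2.93 and 1.76 and LCDM (EPS) 3.17, 3.79 and 1.38. The log2 fold change was 3.28 in 4i/L/b (SE 0.36, edgeR adjusted p = 4.34e-06) and 2.74 in t2iLGöY (SE 0.42, edgeR adjusted p = 5.93e-05). In NHSM-v it was 1.62 (SE 0.52, edgeR adjusted p = 0.0147), a call lost without NHSM-v library 1 (adjusted p = 0.0633) or 3 (adjusted p = 0.0725).

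CLDN15, a pore-forming claudin of the gut, rose in 4 protocols. Primed libraries held between 3.33 and 12.1 CPM with a median of 5.04. The values were 21.3, 23.4 and 20.6 CPM in 4i/L/b, 16.6, 18.3 and 18.0 in TL2i, 19.98, 18.2 and 18.0 in NHSM-v and 13.4, 13.1 and 13.7 in t2iLGöY, each above the highest primed library. E-NHSM held 6.25, 6.32 and 2.75 CPM, TL-CDK8i 10.02, 14.6 and 6.28 and LCDM (EPS) 5.23, 9.002 and 5.79, overlapping primed cells. The log2 fold change was 1.83 in 4i/L/b (SE 0.35), 1.62 in NHSM-v (SE 0.37), 1.58 in TL2i (SE 0.36) and 1.21 in t2iLGöY (SE 0.41), with edgeR adjusted p of 0.000565, 0.00165, 0.00229 and 0.0205. The t2iLGöY call was lost when any of its 3 libraries was left out (adjusted p between 0.0523 and 0.0621). RefSeq places CLDN15 over FIS1, whose group means ran from 23.5 CPM in NHSM-v to 42.4 CPM in E-NHSM, with 35.5 CPM in primed cells. The part of FIS1 in the CLDN15 counts was not tested.

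CLDN12, a claudin that many cell types express, had group means between 31.5 and 98.6 CPM. Primed libraries held between 56.6 and 91.7 CPM with a median of 76.6. E-NHSM held 79.6, 105 and 111 CPM, TL-CDK8i 73.5, 67.0 and 81.8 and TL2i 76.9, 66.3 and 68.1, and none of them passed the test. The level was lower in NHSM-v, at 32.8, 28.1 and 33.5 CPM (log2 fold change -1.32, SE 0.16, edgeR adjusted p = 3.91e-06), and in 4i/L/b, at 47.8, 56.4 and 51.5 CPM (-0.60, SE 0.14, edgeR adjusted p = 0.00249). LCDM (EPS), at 55.9, 53.1 and 58.6 CPM, and t2iLGöY, at 49.5, 69.5 and 41.4 CPM, overlapped the primed range and passed narrowly (log2 fold change -0.41 and -0.47, edgeR adjusted p = 0.0209 and 0.0336). The LCDM (EPS) call was lost without primed K3 (adjusted p = 0.0512) or any LCDM (EPS) library (adjusted p between 0.0552 and 0.09997), and the t2iLGöY call without primed K2 (adjusted p = 0.0529), t2iLGöY library 1 (0.115) or library 3 (0.179).

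CLDN11, the claudin of myelin and testis, passed as higher in TL-CDK8i alone, with 11.1 ± 1.92 CPM (SD, n = 3) against 2.07 ± 1.55 in the primed libraries (SD, n = 6). The log2 fold change was 2.39 (SE 0.63, edgeR adjusted p = 0.00602). TL2i, at 7.57, 4.91 and 6.49 CPM, also lay above the highest primed library (3.89 CPM) but did not pass the test. In the share of claudin reads, CLDN6 fell from 80.8% in primed cells to 8.72% in LCDM (EPS) and 10.4% in t2iLGöY, where CLDN12 took 72.2% and 52.9%. In NHSM-v CLDN6 still took 85.1%. The summed claudin level was 592 ± 30.4 CPM in primed cells (SD, n = 6), 427 ± 11.1 in NHSM-v, 77.3 ± 1.36 in LCDM (EPS) and 101 ± 19.6 in t2iLGöY (SD, n = 3 each).

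The remaining detected claudins stayed under 10 CPM in every group mean. CLDN10 and CLDN19, both claudins of the kidney tubule, passed as lower in TL2i, 4i/L/b, NHSM-v, LCDM (EPS) and t2iLGöY. CLDN19 averaged 7.44 ± 3.52 CPM over the primed libraries (SD, n = 6) and 0.0741 ± 0.128 in LCDM (EPS) (SD, n = 3), a log2 fold change of -6.51 (SE 1.03, edgeR adjusted p = 0.000100). Its LCDM (EPS) counts were 4, 0 and 0, so the size of this change is poorly determined. CLDN14, also of kidney and inner ear, was lower in TL2i, NHSM-v, LCDM (EPS) and t2iLGöY, and CLDN23 in t2iLGöY. Leaving out 1 library ended the calls of CLDN10 in TL2i (library 1 or 3, adjusted p = 0.0527 and 0.0529), of CLDN14 in TL2i (library 1, 0.0567) and of CLDN14 in LCDM (EPS) (library 2 or 3, 0.0533 and 0.0537). CLDN18, a claudin of stomach and lung, was at 0 in the 24 libraries outside TL2i and at 0.928, 1.40 and 1.48 CPM within it, at least 4.19-fold above primed cells (edgeR adjusted p = 0.00357). CLDN20 was tested in all 7 protocols and CLDN5 in 2, with no call against primed cells, and the counts of CLDN2 and CLDN9 were too low to be tested in any protocol.

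**Figure D5:**
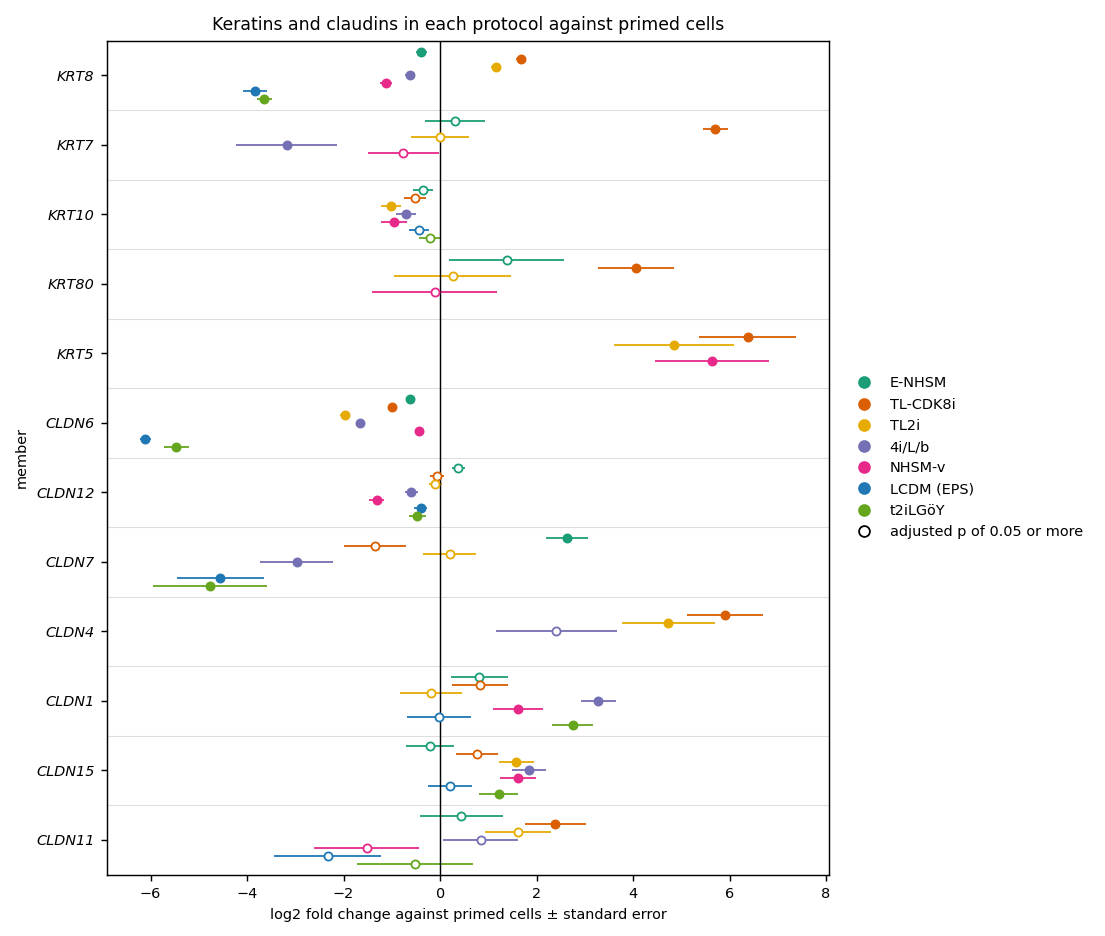
Log2 fold change against primed cells (horizontal axis) of 12 members in each protocol. Bars are an approximate standard error, the absolute log2 fold change over the square root of the edgeR F statistic. Filled points passed an adjusted p of 0.05 and open points did not; KRT17 and pairs in which a group was at or under 3 counts in every library are left out. CLDN6 lay left of 0 in all 7 protocols, KRT8 lay right of 0 in TL-CDK8i and TL2i only, and all CLDN12 and KRT10 points lay within 1.32 of 0.

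TL-CDK8i and TL2i, which share the clone, tamoxifen and LIF and differ in their inhibitors, were compared directly without the primed libraries. Of 21 members tested, 13 were higher in TL-CDK8i and 5 lower, where 64.9% of all genes passed (31.5% higher and 33.3% lower). All 8 keratins tested passed, 7 of them higher in TL-CDK8i. KRT7 differed by a log2 fold change of 5.75 (SE 0.26, edgeR adjusted p = 5.82e-10), KRT80 by 3.86 (SE 0.29, edgeR adjusted p = 8.67e-08), KRT5 by 1.60 (SE 0.29, edgeR adjusted p = 0.000243) and KRT8 by 0.54 (SE 0.12, edgeR adjusted p = 0.00107). CLDN6 was 2.02-fold and CLDN4 2.28-fold higher in TL-CDK8i (edgeR adjusted p = 8.22e-07 and 0.000194). CLDN7, CLDN3, CLDN15, CLDN18 and KRT12 were higher in TL2i, by 2.85-fold for CLDN7 and 1.71-fold for CLDN15 (edgeR adjusted p = 0.000408 and 0.00822).

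When all 8 groups shared 1 estimate of the spread, 8 of these 18 calls remained, among them KRT7, KRT80, KRT8 and CLDN6, while KRT5 (adjusted p = 0.219), CLDN4 (0.274), CLDN15 (0.0854) and CLDN7 (0.0653) no longer passed. Leaving out 1 library ended the calls of CLDN1, KRT10, KRT12 and KRT17, with adjusted p up to 0.0968, 0.197, 0.150 and 0.0943. Over the 7 protocols, a single test of any difference between them was passed by 22 of 25 members, beside 90.9% of all genes, so the members differed between protocols about as often as other genes.

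Genes that work with keratins and claudins were counted from fixed lists. Of 20 tight junction genes tested, between 7 and 12 passed as lower and between 4 and 6 as higher in each of the 7 protocols. The list holds scaffolds, occludin family members and adhesion molecules of the junction. Of all genes tested, between 15.1% (E-NHSM) and 30.6% (NHSM-v) were lower and between 11.1% (E-NHSM) and 28.2% (LCDM (EPS)) higher. Outside E-NHSM, the number of higher tight junction genes was near the share over all genes. F11R (JAM-A), a junction adhesion molecule, averaged 262 ± 18.3 CPM over the primed libraries (SD, n = 6), 4.58 ± 1.65 in NHSM-v and 7.33 ± 1.31 in LCDM (EPS) (SD, n = 3), but was higher in E-NHSM, at 434 ± 12.2. MARVELD3, a relative of occludin, passed as higher in E-NHSM and lower in 4 protocols. ILDR2, of the angulin family of tricellular contacts, and JAM2 each rose in 6 protocols and fell in E-NHSM. ILDR2 stood at 38.4 ± 8.89 CPM in primed cells and 465 ± 19.4 in 4i/L/b. The list's summed level ranged from 2400 to 2675 CPM in primed libraries and from 1667 to 2426 in the protocols.

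Desmosomes tie keratin filaments to the membrane, and 7 of 8 desmosomal genes tested passed as lower in each of 4i/L/b, LCDM (EPS) and t2iLGöY. Over all genes, 29%, 28.9% and 27.2% were lower there. The counts were 5 of 8 in NHSM-v (30.6% of all genes), 4 of 9 in TL2i (25.2%), 3 of 9 in E-NHSM (15.1%) and 3 of 10 in TL-CDK8i (23.8%). DSG2, the desmoglein of simple epithelia, was lower in all 7 protocols, from 412 ± 45.4 CPM in primed cells to 72.3 ± 4.36 in LCDM (EPS). DSP, the plakin that anchors keratin filaments, was lower in 5 protocols and lowest in LCDM (EPS), at 16.6 ± 1.12 CPM against 353 ± 34.5. DSC3, a desmocollin, rose in 6 protocols and was highest in TL-CDK8i, at 44.7 ± 4.81 CPM against 5.26 ± 2.62. Between 0 and 4 desmosomal genes passed as higher in each protocol.

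Of 8 other keratin linkers, 4 were higher and 0 lower in TL-CDK8i and 0 higher and 4 lower in LCDM (EPS). The counts were 1 higher and 2 lower in E-NHSM, 3 and 1 in TL2i, 3 and 3 in 4i/L/b, 2 and 3 in t2iLGöY, and 2 and 2 in NHSM-v. Over all genes, 22.3% were higher and 23.8% lower in TL-CDK8i, and 28.2% and 28.9% in LCDM (EPS). With 8 genes tested, a count of 2 lies near the share over all genes in most protocols. PLEC (plectin) rose in 5 protocols, to 615 ± 16.1 CPM in NHSM-v from 174 ± 24.1 in primed cells, and fell in LCDM (EPS), and DST (dystonin) rose in 4 and fell in E-NHSM. EPPK1 (epiplakin) was lower in 4 protocols. ITGA6, a hemidesmosomal integrin chain, was lower in 6 and reached 44.5 ± 1.95 CPM in LCDM (EPS) from 486 ± 28.4.

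Regulators and surface markers of the epithelial state were counted in the same way. Of 14 or 15 tested, 4 were higher and 2 lower in E-NHSM, 2 and 8 in TL-CDK8i, 2 and 6 in TL2i, 1 and 11 in NHSM-v, 1 and 10 in 4i/L/b, 0 and 12 in LCDM (EPS) and 0 and 11 in t2iLGöY. Over all genes, 11.1% were higher and 15.1% lower in E-NHSM. Elsewhere between 22.3% and 28.2% of all genes were higher and between 23.8% and 30.6% lower. KLF5, a transcription factor of epithelial and embryonic stem cells, was among those called higher, with means of 207, 158 and 32.4 CPM for TL-CDK8i, 4i/L/b and NHSM-v against 9.33 in primed cells. GRHL3, a regulator of surface epithelium, was higher in TL-CDK8i and TL2i and lower in the other 5 protocols, and ELF3 was higher in TL2i. ESRP1 and ESRP2, splicing factors of epithelial cells, were at 149 ± 19.2 and 78.8 ± 4.92 CPM in primed cells (SD, n = 6). ESRP1 was at 206 ± 6.41 CPM in E-NHSM (SD, n = 3), 14.8 ± 4.66 in TL-CDK8i, 11.6 ± 2.72 in TL2i and 2.04 or less in the other 4 protocols, and it was called lower in 6. ESRP2 was lower in all 7. CDH1 (E-cadherin) had a mean of 69.1 CPM in primed cells, 231 in E-NHSM, 17.1 in TL-CDK8i and 30.1 in TL2i. In NHSM-v, CDH1 stood at 0.0299 CPM beside the CLDN6 mean of 364 CPM.

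Regulators and effectors of the mesenchymal state were higher more often than lower in 5 of 7 protocols. Of 9 tested, 6 were higher and 1 lower in each of TL-CDK8i and NHSM-v, 5 and 3 in TL2i, 5 and 1 in 4i/L/b, 3 and 5 in LCDM (EPS) and 4 and 3 in t2iLGöY, while in E-NHSM 1 was higher and 7 lower. Over all genes, 11.1% were higher and 15.1% lower in E-NHSM. The shares elsewhere were between 22.3% and 28.2% higher and between 23.8% and 30.6% lower. ZEB1, a repressor of epithelial genes, averaged 35.9 ± 8.14 CPM over the primed libraries (SD, n = 6), 295 ± 28.1 in LCDM (EPS) and 5.99 ± 0.601 in E-NHSM (SD, n = 3). SNAI2 rose in 5 protocols and fell in LCDM (EPS), and SNAI1 was lower in all 7 and TWIST2 in 4. Marker genes of fibroblasts, which express such regulators, summed to between 1216 and 2528 CPM in primed libraries, 8854 and 11471 in TL-CDK8i, 12519 and 16390 in 4i/L/b and 805 and 1045 in LCDM (EPS). The part of other cell types in the keratin and claudin values was not tested.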

How the data were processed

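The authors sequenced mRNA as 75-base single reads. The submitters' processing notes name bcl2fastq, cutadapt, HISAT2 and HTSeq; versions, genome build and strand setting are not given in the sources used here. The deposited values are raw counts of reads per gene symbol in 8 tables, and 0 columns stayed unmapped. Primed columns (letters J and K) could be tied to their group but not to single labels. Counts from close paralogues, whose shared reads the counting could split or drop, are uncertain.

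From the counts, TMM-scaled CPM and gene-wise tests were computed in R 4.3.3 with edgeR 4.0.16 (filterByExpr, glmQLFit, glmQLFTest; Benjamini-Hochberg over all genes tested) for each protocol against primed cells, for TL-CDK8i against TL2i, for any difference among the 7 protocols and for primed K against J. Each SE of a log2 fold change is its absolute value over the square root of the edgeR F statistic, an approximation that the fit itself does not return. The tests were tried on simulated counts. Alternatives were DESeq2 1.42.0, upper-quartile scaling, other filters, a fold limit, 1 fit of all groups, either primed letter alone, a replicate block and each library left out. All 36 pairs of libraries of 1 group differed by more than sampling noise (chi-square per gene between 3.98 and 29.8), so no pair was counted as a repeat deposit of 1 library. Deviations of same-numbered libraries of different protocols had correlations between -0.172 and 0.131 over 63 pairs, with a median of -0.00129. Only 2 pairs exceeded 0.1, TL2i with 4i/L/b for numbers 1 (0.117) and 2 (0.131).

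Members of at least 10 CPM in a group mean were named with values, the 12 with the highest group mean in every library. From each companion list (tight junction, desmosome, keratin linkers, other intermediate filaments, epithelial and mesenchymal regulators, cornified envelope, trophoblast and amnion, fibroblast, neural, endoderm, pluripotency) up to 2 rising and 2 falling genes called in at least 4 protocols were named; CDH1, KLF5, GRHL3, ELF3, FLG, CSTA, GABRP, TP63, KRT14 and the overlapping genes were named after their values were seen. The members and lists were chosen with earlier results of these data known. RefSeq names (T2T-MMU8v2.0) matched 61 of 65 members. In RefSeq 7 detected members overlap another gene. For 5 of them, CLDN7, CLDN15, CLDN20, CLDN23 and KRT80, it is a protein-coding gene, and for CLDN4 and CLDN10 a long non-coding RNA. What these overlaps contributed to the counts was not tested.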

Additional observations from a re-analysis of the deposited data

Results flagged for a closer look

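In the 6 primed libraries, 5 of 26 detected members had 1 library far from the others by Dixon's ratio of gap to range. Chance passes this limit in about 1 of 20 groups if values are normally distributed. Low counts with zeros are not so distributed, so no excess over that rate can be read from the 5 flags. CLDN15 stood at 12.1 CPM in primed J3 (ratio 0.736), CLDN3 at 2.90 CPM in J2 (0.752) and CLDN4 at 2.36 CPM in J2 (0.812). CLDN9 in K1 (1.47 CPM, 17 counts) and KRT5 in K1 (0.692 CPM, 8 counts) had a ratio of 1 because the other 5 libraries were at 0.

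All 13 members that reached 10 CPM in a group mean differed among the 7 protocols in a test that leaves out the primed libraries (edgeR quasi-likelihood F test, Benjamini-Hochberg over all genes), where 90.9% of all genes passed. These members were picked by their group means, several through the 1 protocol where they were high, so a difference was partly built into the choice and the values are a description. The adjusted p was 1.66e-20 for KRT8, 1.17e-17 for KRT7, 1.34e-08 for KRT5, 3.14e-08 for KRT80, 3.14e-07 for KRT17 and 0.0198 for KRT10. For the claudins it was 1.82e-20 for CLDN6, 3.03e-13 for CLDN7, 4.87e-11 for CLDN4, 1.6e-10 for CLDN1, 8.03e-09 for CLDN12, 5.55e-07 for CLDN15 and 1.31e-05 for CLDN11.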

How the results depend on the processing

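The 84 calls of named members were checked under 1314 combinations of call and setting in which the member could still be tested. Of these, 1235 kept direction and threshold, 79 lost the threshold and 0 changed direction. Combinations in which the member dropped out of the test, as with at least 10 counts required in every library, are not among them and not counted as lost. The fold limit was applied to the reported fit, without a new one. The number of members called moved by over 1.5 times in few settings. With an absolute log2 fold change of at least 1 required, E-NHSM went from 4 to 2 and TL-CDK8i against TL2i from 18 to 11. With no filter on low counts, TL-CDK8i went from 8 to 13 and 4i/L/b from 10 to 17. With at least 10 counts in every library, which tests fewer genes, the counts were 3 in TL-CDK8i, 5 in TL2i, 7 in NHSM-v, 3 in LCDM (EPS), 7 in t2iLGöY and 7 among the 7 protocols (22 otherwise). With all 8 groups in 1 fit, E-NHSM had 7 and TL-CDK8i against TL2i had 8; the cause was not tested. With 1 library left out, the ranges were 2 to 5 (E-NHSM), 8 to 9 (TL-CDK8i), 9 to 13 (TL2i), 8 to 11 (4i/L/b), 11 to 14 (NHSM-v), 6 to 9 (LCDM (EPS)), 9 to 11 (t2iLGöY), 15 to 19 (TL-CDK8i against TL2i), 22 to 25 (among protocols) and 0 to 1 (primed K against J). Against the J columns alone, the calls of CLDN3 in E-NHSM (adjusted p = 0.0532), CLDN19 in 4i/L/b (0.0675) and NHSM-v (0.0768), CLDN1 in NHSM-v (0.0542), CLDN12 in LCDM (EPS) (0.176) and t2iLGöY (0.203) and CLDN15 in t2iLGöY (0.118) were lost, as was KRT222 in NHSM-v against either letter alone. In E-NHSM, 42.3% of all called genes were higher by TMM, 54.2% by total counts and 52.3% by upper-quartile scaling. Total counts would shift the median log2 fold change by 0.12 in TL2i and LCDM (EPS), 0.13 in t2iLGöY and -0.12 in TL-CDK8i against TL2i. With the replicate number as a block, 17 members were called in TL-CDK8i against TL2i and 22 among protocols, with KRT10 (0.0508) and KRT12 (0.0773) lost in the first; the numbers did not pair these libraries (correlation of deviations between -0.172 and -0.0145 for 3 pairs). No paired analysis was possible for the comparisons with primed cells because the primed columns show the group but not which labelled sample. Members with few counts, such as CLDN3 and KRT222, are limited by depth.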

Other observations

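Intermediate filament genes other than keratins were higher more often than lower in 6 of 7 protocols. Of 14 tested, 8 were higher and 2 lower in TL-CDK8i, 9 and 1 in LCDM (EPS), 6 and 2 in t2iLGöY, 7 and 3 in 4i/L/b, 6 and 3 in each of TL2i and NHSM-v, and 3 and 5 in E-NHSM. Over all genes, the share higher was 22.3% in TL-CDK8i, 28.2% in LCDM (EPS), 27.1% in t2iLGöY and 26.6% in 4i/L/b. It was 25.6% in TL2i, 28% in NHSM-v and 11.1% in E-NHSM, and between 15.1% (E-NHSM) and 30.6% (NHSM-v) of all genes were lower. NEFL, a neurofilament chain, was higher in all 7 protocols, averaging 4.85 ± 1.24 CPM over the primed libraries (SD, n = 6), 185 ± 54.5 in TL-CDK8i and 216 ± 27.3 in LCDM (EPS) (SD, n = 3), and PRPH (peripherin) was higher in 5. DES (desmin) was lower in 4 protocols and higher in 2, with its highest mean, 614 CPM, in TL-CDK8i, and LMNB1, a lamin of the nuclear envelope, was lower in 4 and higher in LCDM (EPS). Of the 9 cornified envelope genes in the tables, between 3 and 6 were at 0 in each group. Their summed level ran from 60.7 to 68.8 CPM in TL-CDK8i and from 14.4 to 29.0 CPM in primed libraries, and 3 of the 4 tested in TL-CDK8i were higher with 0 lower. These were SFN, an epithelial 14-3-3 protein, at 44.3 ± 6.47 CPM against 18.4 ± 6.27, FLG (filaggrin) at 13.7 against 0.642 CPM and CSTA (cystatin A) at 3.60 against 0.304 CPM. In the other protocols 0 were higher and at most 1 lower, which was SFN in 5 of them. Few of these genes could be tested there, 4 in TL2i, 3 in E-NHSM, 2 in each of LCDM (EPS) and t2iLGöY and 1 in each of 4i/L/b and NHSM-v.

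Markers of several lineages moved with the protocols. Of all genes tested, between 11.1% (E-NHSM) and 28.2% (LCDM (EPS)) were higher and between 15.1% (E-NHSM) and 30.6% (NHSM-v) lower. Of 12 neural genes tested, 12 were higher and 0 lower in LCDM (EPS), where 28.2% of all genes were higher, and 11 higher and 1 lower in each of t2iLGöY and NHSM-v. Of 11 tested, 9 were higher in 4i/L/b and 8 in TL2i, with 0 lower. In TL-CDK8i 3 of 8 were higher and 1 lower, and in E-NHSM 1 of 7 was higher and 3 lower. The neural list summed to between 7270 and 7573 CPM in LCDM (EPS) and between 2492 and 2758 in primed libraries, with DCX, a protein of young neurons, at 835 and 2.48 CPM and TUBB3 at 690 and 10.3 CPM. NES was lower in 4 protocols and higher in LCDM (EPS). LCDM (EPS) also had the lowest summed claudin level, and what the neural markers contributed was not tested.

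Of 11 fibroblast genes tested, 8 were higher and 0 lower in each of TL-CDK8i and NHSM-v, and 9 higher and 2 lower in each of TL2i and 4i/L/b, where 25.6% and 26.6% of all genes were higher. In LCDM (EPS) 3 of 11 were higher and 5 lower, in t2iLGöY 3 of 9 were higher and 4 lower, and in E-NHSM 1 of 9 was higher and 6 lower. COL6A3 rose in 6 protocols and fell in t2iLGöY, and POSTN rose in 4. S100A4 and THY1 were lower in 5, and THY1 was higher in NHSM-v. Of the endoderm genes tested, 8 of 10 were higher and 1 lower in TL2i, 4 of 9 higher and 1 lower in 4i/L/b and 3 of 8 higher and 0 lower in TL-CDK8i, and elsewhere at most 2 were higher and between 1 and 3 lower. Over all genes, 25.6% were higher in TL2i, 26.6% in 4i/L/b and 22.3% in TL-CDK8i. The endoderm list had a summed level between 216 and 349 CPM in TL2i and between 25.8 and 38.9 in primed cells. CXCR4 rose in 6, AFP was lower in 5, and APOA1 was lower in 4 and higher in TL2i, at 176 against 12.6 CPM, and in 4i/L/b, at 28.8 CPM. Of the trophoblast and amnion genes, 6 of 10 tested were higher and 2 lower in TL2i, and elsewhere at most 3 were higher and between 2 and 4 lower. TFAP2A rose in 4 protocols and fell in E-NHSM, and VTCN1 and TEAD4 were lower in all 7. All 10 pluripotency genes were lower in TL-CDK8i, 4i/L/b, NHSM-v and t2iLGöY, 9 in TL2i and LCDM (EPS) and 2 in E-NHSM, where 3 were higher. PRDM14 was lower in all 7 protocols and NANOG in 6.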
